A study of Klebsormidium nitens with 4 samples.

Results

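Among the 17290 features of the *Klebsormidium nitens* table, 54 nuclear genes had transcripts that were very abundant in low light and moderately less abundant after high light. They were chosen from the measured values. Each had a mean of at least 500 FPKM in low light, a ratio of high to low light means (with 1 FPKM added to each) above 0.25 and at most 0.8, and both high light values below both low light values. In all, 55 genes met these values, and ferredoxin (Fd, kfl00017_0060) was then left out because the text of the study names it by its identifier. Since the direction and the size of the change chose the 54 genes, their fall is a description here. Limma calls on the same libraries are given further on, and they are no independent test of it.

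*K. nitens* is a filamentous freshwater and terrestrial alga of the Charophyta, the algae closest to land plants. The cultures were of strain NIES-2285, grown without an organic carbon source in photobioreactors of 0.8 L at 20 °C, under continuous white light and with air enriched to 1% CO2. High light cultures received 1500 µE m-2 s-1 for 3 h, and low light cultures stayed at 50 µE m-2 s-1. Each condition had 2 independent biological replicates, and polyA RNA of the 4 cultures was sequenced to reads of 50 nt according to the labels. FPKM, the fragments of a transcript scaled to its length and to the mapped fragments of the library, is a level per length and can be compared between genes. In RNA from a whole culture, fewer cells with a transcript and less of it per cell cannot be told apart.

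In green algae and plants, most proteins of photosynthesis are encoded in the nucleus and imported into the plastid, and their mRNAs are among the most abundant of cells grown in light. The small subunit of Rubisco, the enzyme that fixes CO2, is one of these proteins, and it assembles with a large subunit encoded in the plastid. Algae and plants moved to strong light are known to lower the mRNA of light-harvesting antenna proteins.

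The 54 genes are 0.312% of the features, yet they took 8.55% and 8.72% of the summed FPKM in high light replicates 1 and 2, against 14.5% and 13.8% in low light replicates 1 and 2. Their share averaged 8.64% ± 0.123 in high light and 14.2% ± 0.497 in low light (SD, n = 2 each), a difference of 5.54 percentage points. In FPKM, the genes together reached 53020 and 54079 in high light, against 95967 and 90856 in low light. The summed level in high light was thus 0.573 of that in low light. Every gene was chosen to be lower in both high light libraries, so the sums had to separate by condition. Their distance is no evidence beyond the rule. Groups of 2 libraries also cannot give an exact permutation p under 0.333.

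The sum over all 17290 features was itself lower in high light. It reached 620285 and 620013 FPKM in high light, against 660467 and 657079 FPKM in low light, a mean difference of 38624 FPKM or 5.86% of the low light sum. Such a sum is not fixed by the unit and does not measure RNA per cell, because reads from long transcripts add less to it than the same number of reads from short ones. The 54 genes lost 39862 FPKM between the condition means, which is 103% of the net difference. Over the 4 pairs of a high and a low light library the same percentage ranged from 99.2% to 106.9%. The other 17236 features summed to 567264 and 565934 FPKM in high light, against 564500 and 566223 FPKM in low light, so the conditions overlapped once the 54 genes were taken out.

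A percentage above 100 is possible because the net difference is what remains of far larger falls and rises. Over the table, 7315 genes had a lower mean in high light and together lost 155990 FPKM, of which the 54 genes made up 25.6%. Meanwhile 4505 genes had a higher mean and gained 117365 FPKM. Genes under 500 FPKM in low light accounted for most of both flows. Of these, 7168 genes with a lower mean lost 87238 FPKM and 4470 genes with a higher mean gained 98512 FPKM, as the bars of summed change show. The near match between the loss of the 54 genes and the net difference is therefore a sum of many opposite changes, and it does not mean that the rest of the transcriptome stayed as it was.

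**Figure D1:**
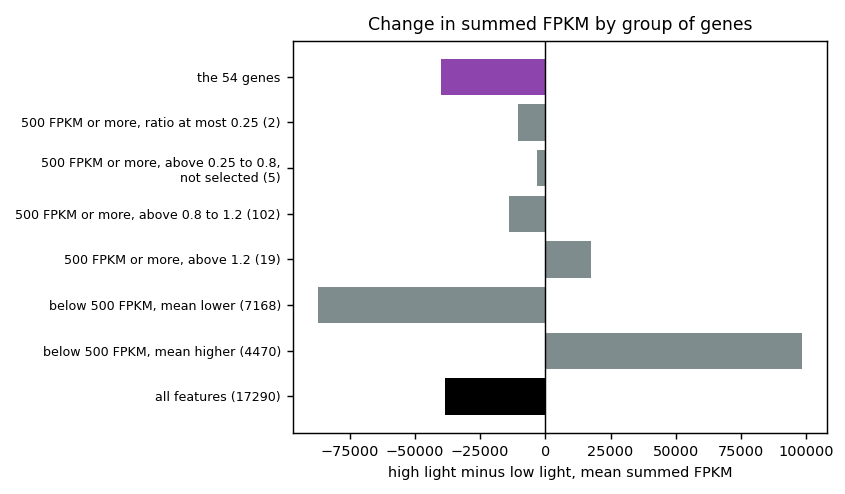
Change in summed FPKM, high light minus low light, in FPKM, from the means of 2 libraries per condition, for the 54 genes, the other groups of genes and all features. The bar of the 54 genes, a fall of 39862 FPKM, is close to that of all features, a fall of 38624 FPKM, while the bars of genes under 500 FPKM point both ways and are longer.

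Plastid rRNA set the libraries apart and bears on this percentage. Its 6 features summed to 11958 and 371 FPKM in high light replicates 1 and 2, against 168 and 17196 FPKM in low light replicates 1 and 2. High light 1 and low light 2 were thus the high libraries, and the conditions overlapped. Without these features the share of the 54 genes was 8.72% and 8.73% in high light, against 14.5% and 14.2% in low light. The net difference became 36107 FPKM and the loss of the 54 genes 110.4% of it. Between single libraries that percentage then ran from 82.6%, for high light 1 against low light 1, to 181.7%, for high light 2 against low light 2. The share is therefore the steadier of the measures, and the percentage of the net difference moved with libraries that differed in plastid rRNA. None of the 230 organelle features was among the 54 genes.

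**Figure D2:**
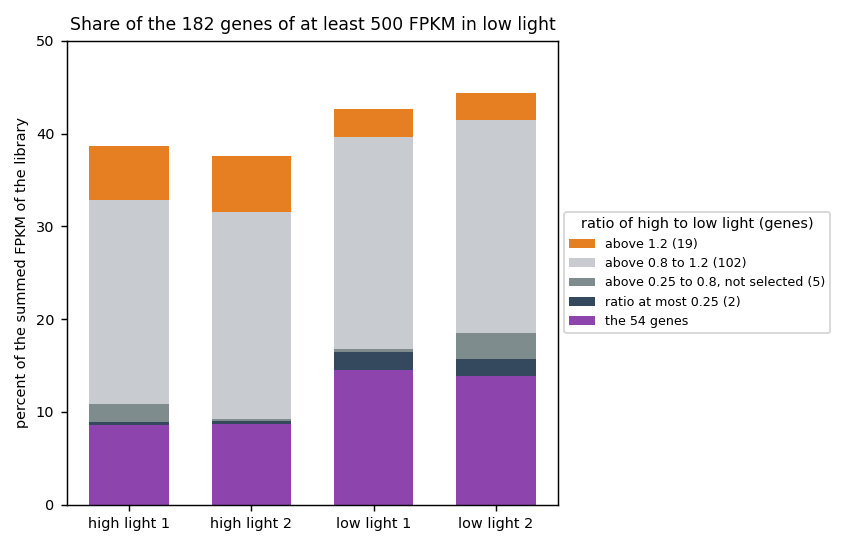
Share of each library's summed FPKM taken by the 182 genes that averaged 500 FPKM or more in low light, in percent, stacked by the ratio of high to low light. The 54 genes at the base take 8.55% and 8.72% in high light and 14.5% and 13.8% in low light, and the layer of unselected genes with ratios above 0.25 to 0.8, which holds plastid rRNA, is wide in high light 1 and low light 2.

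Abundant transcripts moved in several ways. In low light, 182 genes reached a mean of 500 FPKM. Besides the 54 genes, 2 had a ratio of at most 0.25, 5 had a ratio between the bounds but did not qualify, 102 lay above 0.8 and up to 1.2, and 19 lay above 1.2. The 5 that did not qualify were Fd and 4 plastid rRNA features, whose libraries overlapped. The genes above 1.2 summed to 36073 and 37443 FPKM in high light, against 19783 and 18561 FPKM in low light. Those from 0.8 to 1.2 summed to 136351 and 137827 FPKM in high light, against 150999 and 151339 FPKM in low light. Both high light values lay below both low light values for 131 of the 182 genes, or 72.0%, and for 50.0% of the 10557 genes above 0 in all libraries. All 54 genes do so by the rule.

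The 54 genes had ratios from 0.259 to 0.799, with a median of 0.591 and quartiles of 0.463 and 0.730. In high light, 16 of them had 0.5 or less of their low light mean. The median gene above 0 in all 4 libraries had a ratio of 0.842, or −0.25 on the log2 scale, so FPKM as deposited were lower in high light for most genes. Divided by that ratio, 36 of the 54 genes were still at 0.8 or less. The bound at 0.8 runs through a dense range of ratios, as 16 of the genes had ratios from 0.7 to 0.8 and 49 unselected abundant genes had ratios from 0.8 to 0.9. At the bound at 0.25 values were sparse.

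**Figure D3:**
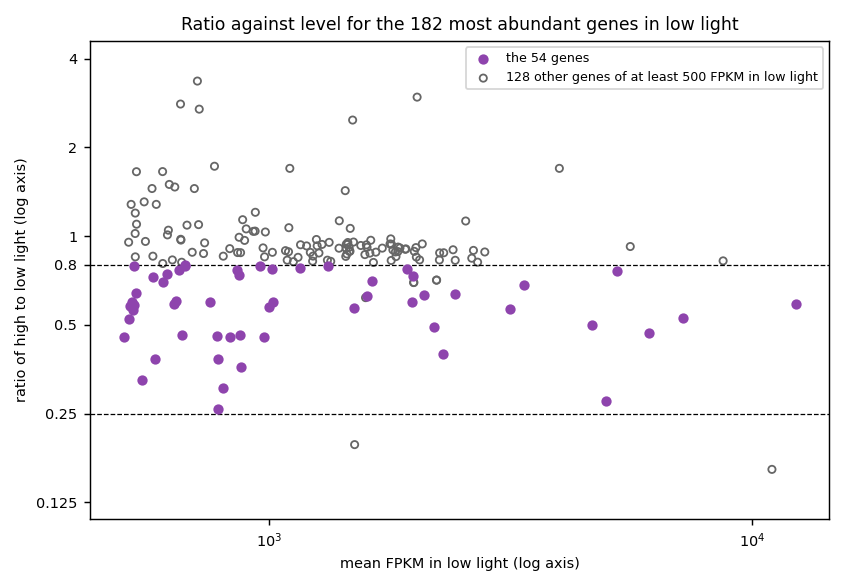
Ratio of mean FPKM in high light to low light against mean FPKM in low light (both axes logarithmic) for the 182 genes that averaged 500 FPKM or more in low light, with dashed lines at the bounds of 0.25 and 0.8. Filled points are the 54 genes, which spread over the whole range of levels, and the open points crowd just above the line at 0.8.

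The most abundant of the 54 genes was kfl00326_0030, with 7127 and 7337 FPKM in high light, against 12822 and 11807 FPKM in low light. It was the gene with the highest FPKM in both low light libraries and ranked first and second in the high light libraries. Its transcript alone took 1.15% and 1.18% of the summed FPKM in high light, against 1.94% and 1.80% in low light, and its loss was 13.2% of the net difference. The reference annotation (assembly ASM70883v1) places it on scaffold kfl00326, positions 10315 to 11900, a span of 1586 bases. It gives the gene neither a symbol nor a product, so no role can be stated.

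Next came kfl00120_0160, with 3718 and 3857 FPKM in high light, against 7338 and 7068 FPKM in low light. Its rank was 7 in both high light libraries, against 4 in both low light libraries. At kfl00183_0180, the level was 2819 and 2934 FPKM in high light, against 6304 and 5947 FPKM in low light, a ratio of 0.470. Replicates lay close together at both genes, and the high light values lay below the low light values, as the rule requires. The 3 most abundant genes together lost 30.4% of the net difference. Neither of these 2 genes has a symbol or product in the annotation.

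A smaller fall was measured for kfl00234_0070, at 3921 and 4081 FPKM in high light, against 5464 and 5038 FPKM in low light, a ratio of 0.762. Its rank, 6 in both high light libraries against 7 in both low light libraries, was better in high light although its FPKM was lower. Among the 10 most abundant of the 54 genes, kfl00107_0210 had the lowest ratio, 0.277. It had 1382 and 1380 FPKM in high light, against 5016 and 4973 FPKM in low light. That gene dropped to ranks 71 and 64 in high light, against rank 8 in both low light libraries. Its loss, 9.36% of the net difference, was second only to that of kfl00326_0030 among the 54 genes. For kfl00107_0210, the study's supplementary gene list gives no best hit in Arabidopsis or Chlamydomonas.

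Of the other 5 among the 10 most abundant, kfl00221_0110 had 2279 and 2393 FPKM in high light, against 4805 and 4535 FPKM in low light, a ratio of 0.500. Lower down, kfl00001_0320 (ratio 0.684), kfl00005_0610 (0.566), kfl00373_0060 (0.635) and kfl00347_0110 (0.399) had low light means from 2292.5 to 3375 FPKM. The last of these had 893 and 937 FPKM in high light, against 2379 and 2206 FPKM in low light. These 10 genes summed to 27661 and 28652 FPKM in high light, against 53396 and 50202 FPKM in low light. They alone lost 61.2% of the net difference, and the 44 less abundant genes lost 42.0%.

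**Figure D4:**
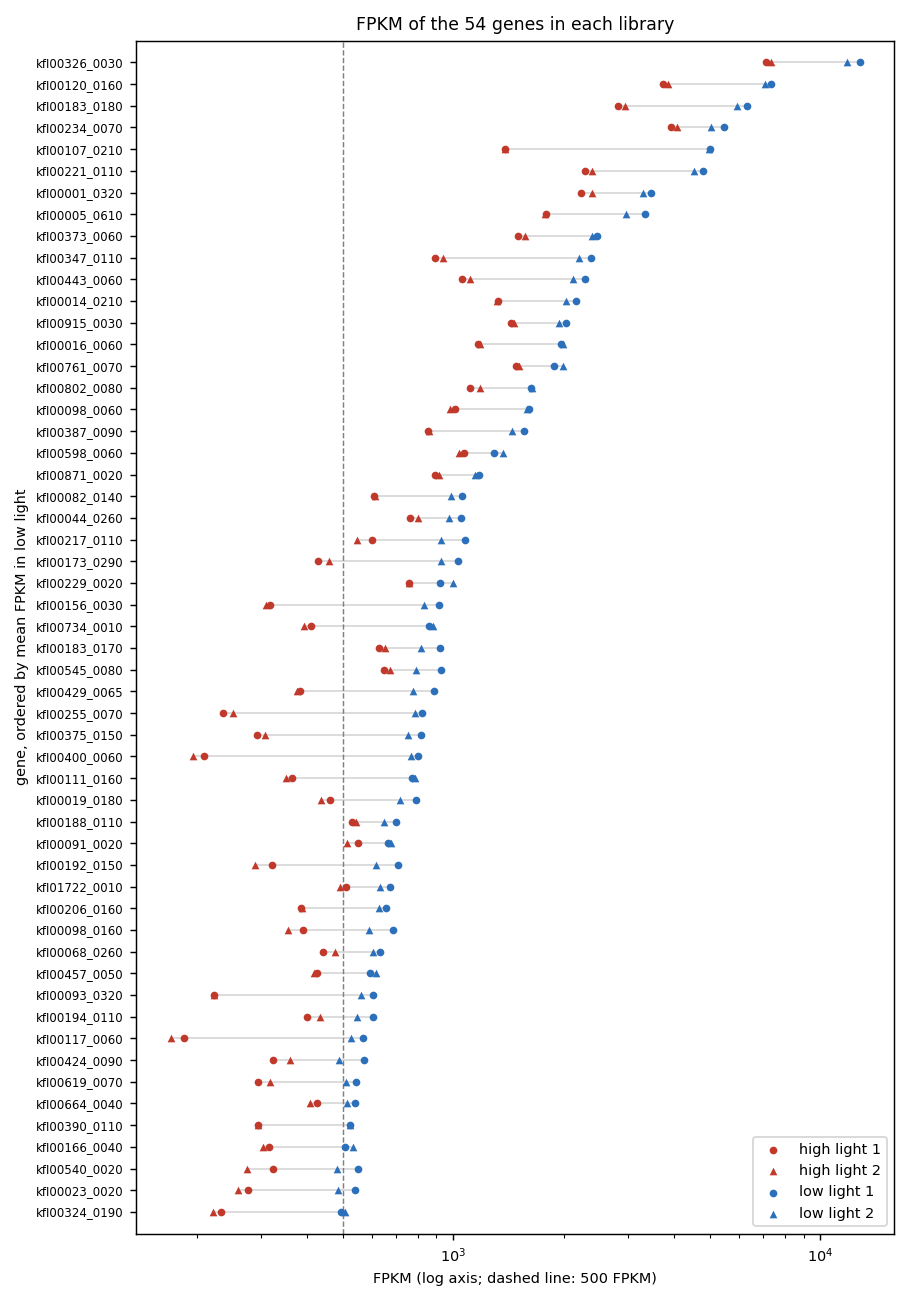
FPKM of each of the 54 genes in each library on a logarithmic axis, ordered by low light mean, with high light in red, low light in blue, circles for replicate 1, triangles for replicate 2 and a dashed line at 500 FPKM. All red points lie left of the blue points of their gene, as the rule requires, and the distance varies from gene to gene at every level.

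The loss was held by few genes. The gene with the largest loss had 12.8% of the summed loss of the 54 genes, the 3 with the largest losses 30.4%, and 7 were enough for 51.3%. By level, the 4 genes of 5000 FPKM or more in low light held 32.6% of it and the 8 genes from 2000 to 5000 FPKM held 31.5%. The 19 genes from 500 to 700 FPKM held 10.6%. Selected genes were 4 of the 7 genes of at least 5000 FPKM, 11 of the 72 genes from 1000 to 2000 FPKM and 19 of the 44 genes from 500 to 700 FPKM. Of the 5 ranges of level, that from 1000 to 2000 FPKM held the smallest share of selected genes.

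Size of the fall and level did not go together in a simple way. Median ratios were 0.595 from 500 to 700 FPKM, 0.457 from 700 to 1000, 0.703 from 1000 to 2000, 0.533 from 2000 to 5000 and 0.557 above 5000. The lowest ratio belonged to kfl00400_0060, a gene between 700 and 1000 FPKM in low light, with 210 and 196 FPKM in high light, against 800 and 769 FPKM in low light. It went to ranks 460 and 494 in high light, against 124 and 129 in low light. The gene with the third lowest ratio, kfl00255_0070, had 236.5 and 251 FPKM in high light, against 821 and 787 FPKM in low light, a ratio of 0.303. Both are listed without a best hit in either species.

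At the other end, the smallest falls were those of kfl00598_0060, kfl00091_0020 and kfl00188_0110. The first had 1068 and 1038 FPKM in high light, against 1289 and 1365 FPKM in low light. With 531 and 542 FPKM in high light, against 697 and 646 FPKM in low light, kfl00188_0110 had a ratio of 0.799, the last under the bound. Just outside was kfl00135_0280, with 496 and 478 FPKM in high light, against 628 and 579 FPKM in low light, a ratio of 0.807. The next ratios outside were 0.814 (kfl00864_0030) and 0.815 (kfl00486_0080), so nothing in the ratios separates the selected genes from their neighbours above the bound.

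The minimum of 500 FPKM also cut through a continuous range. The selected genes with the lowest low light means were kfl00324_0190, with 233 and 222 FPKM in high light against 494 and 508 FPKM in low light, kfl00023_0020 and kfl00540_0020. Just under the minimum was kfl01369_0020, with 257 and 237 FPKM in high light, against 487 and 487 FPKM in low light. In high light, 28 of the 54 genes were still at or above 500 FPKM in both libraries and 25 were below it in both. The remaining gene, kfl01722_0010, had 512 and 490 FPKM in high light.

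Below the bound of 0.25 were 2 abundant genes that fell more steeply. At kfl00544_0040, the second most abundant gene by low light mean, FPKM was 1732 and 1818 in high light, against 11204 and 10779 in low light, a ratio of 0.162. This gene alone lost 9216 FPKM, more than any of the 54. The other, kfl01434_0010, had 285 and 303 FPKM in high light, against 1539 and 1470 FPKM in low light. Its Arabidopsis best hit in the study's gene list is AT3G27690, a light-harvesting chlorophyll a/b-binding protein of photosystem II, which captures light for the reaction centre. Adding both to the 54 would add 27.0% of the net difference.

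Only 2 of the 54 genes carry an annotation that gives a role. Both, kfl00093_0320 and kfl00117_0060, have the Arabidopsis best hit AT1G67090, a small subunit of Rubisco. For kfl00093_0320, FPKM was 223 and 223 in high light, against 604 and 561 in low light, a ratio of 0.383. For kfl00117_0060, FPKM was 184.5 and 170 in high light, against 566 and 528 in low light, a ratio of 0.324. In both, the high light values lay below the low light values, as the rule requires, and both had ratios under the lower quartile of the 54 genes. Best hits were known only for genes in the study's lists of changed genes, so these low ratios are no evidence about Rubisco genes. Small subunit genes that fell less would not be recognised here. A further gene with the same Chlamydomonas best hit and the Arabidopsis best hit AT5G38410, also a small subunit, was looked up after its values had been seen. That gene, kfl00012_0630, had 27.3 and 30.01 FPKM in high light, against 169.5 and 148 FPKM in low light, a ratio of 0.181. It too was found through the lists of changed genes. Reads may be split between such similar genes, and how the counting treated them is not given in the sources used here.

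The study's supplementary gene lists hold 8 of the 54 genes, the 2 Rubisco genes and 6 without a best hit in either species. The 6 are kfl00107_0210, kfl00347_0110, kfl00156_0030, kfl00255_0070, kfl00375_0150 and kfl00400_0060, with ratios from 0.259 to 0.399. The lists cover genes that changed past a threshold, so the other 46 genes have no best hit here, and what most of these abundant transcripts encode is not described.

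For comparison, 8 antenna and electron transport genes that the study names as less expressed in high light were looked at. They were picked on these libraries for their fall, so their direction is no independent evidence. Other photosynthesis genes that the study names are outside this list and some moved the other way. One, chosen after its values had been seen, is LHCSR (kfl00478_0030), which protects photosystem II by dissipating excess light, with 5646 and 6359 FPKM in high light, against 2152 and 1901 FPKM in low light. In the list of 8, ratios ran from 0.191 to 0.658 with a median of 0.369. Of these 8, only Fd, the soluble electron carrier after photosystem I, reached 500 FPKM in low light, with 979 and 980 FPKM in high light, against 1640 and 1530 FPKM in low light. PetC, the Rieske protein of the cytochrome b6f complex, had 284 and 293 FPKM in high light, against 446 and 432 FPKM in low light. The study states a stronger repression of PetC than the ratio of 0.658 measured here. PsaD (kfl00193_0150), on the stromal side of photosystem I, had 65.1 and 64.4 FPKM in high light, against 248 and 226 FPKM in low light. LHCB1 (kfl00098_0080), an antenna protein of photosystem II, was at 21.5 and 17.2 FPKM in high light, against 107 and 96.3 FPKM in low light. PsbP, PsbW, PsaO and FNR, which serve photosystem II, photosystem I and the reduction of NADP, had ratios from 0.299 to 0.380. All but Fd of these 8 had low light levels under those of the 54 genes.

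Every feature of the table was also fitted with limma, high light against low light, on quantile-normalized log2(FPKM + 1), and p-values were adjusted by Benjamini-Hochberg over all 17290 features. Genes are called repressed at a log2 fold change of at most −1 and an adjusted p below 0.05. By this call 15 of the 54 genes were repressed, where 3.51% of all features and 9.34% of the 182 abundant genes were. The study's own list of repressed genes holds 8 of the 54, so these calls are not those of the study. With no threshold on size, 33 of the 54 had a negative fold change at an adjusted p below 0.05, where 6.32% of all features and 24.2% of the 182 abundant genes did, and at an unadjusted p below 0.05 it was 51, where 15.6% did. Leaving out a library left 4 (low light 1), 2 (low light 2), 1 (high light 1) or 1 (high light 2) genes called repressed in place of 15, and 5 to 7 at any size in place of 33. Because the rule used this contrast, nothing is read from these counts. The 54 genes had a median log2 fold change of −0.74, beside 0.00 over all features. Of the 8 antenna and electron transport genes, 6 were called repressed by limma and all 8 had an adjusted p below 0.05.

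The 15 repressed genes had ratios from 0.259 to 0.520 and log2 fold changes from −2.06 to −1.08. Among the 31 genes from 500 to 1000 FPKM, 13 were repressed, where 16.9% of all 77 genes at that level were, and 12 had a log2 ratio of means of −1 or less. Among the 23 genes of at least 1000 FPKM, 2 were repressed, kfl00107_0210 and kfl00347_0110, where 3.81% of all 105 genes at that level were, and 4 had a log2 ratio of −1 or less. No pattern by level is read from these calls, for the same reason. The median log2 fold change of the more abundant genes was −0.56, and their median log2 ratio of mean FPKM was −0.74. For the less abundant genes the order was turned round, with −0.92 for the fold change and −0.78 for the ratio.

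Quantile normalization gives genes of equal rank the same value in every library, and for the top ranks this replaced much of the measured fall. After it, kfl00326_0030 had log2 levels of 13.21 and 13.11 in high light, against 13.21 and 13.21 in low light. Its log2 fold change was −0.05 (SE 0.05, limma adjusted p = 0.679), beside a log2 ratio of means of −0.77. Where ranks were the same in both replicates, the normalized replicates were identical and the standard error came from the moderation alone. This held for kfl00120_0160, with a log2 fold change of −0.56 (SE 0.0013) beside a log2 ratio of −0.93, and for kfl00234_0070. There, limma gave a positive log2 fold change, 0.09 (SE 0.0013, limma adjusted p = 0.0113), although both its high light FPKM values were below both low light values. It was the only one of the 54 whose sign was turned, and without normalization its log2 fold change was −0.39. With a filter at 1 FPKM its fold change stayed at 0.09, but limma adjusted p was 0.556.

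**Figure D5:**
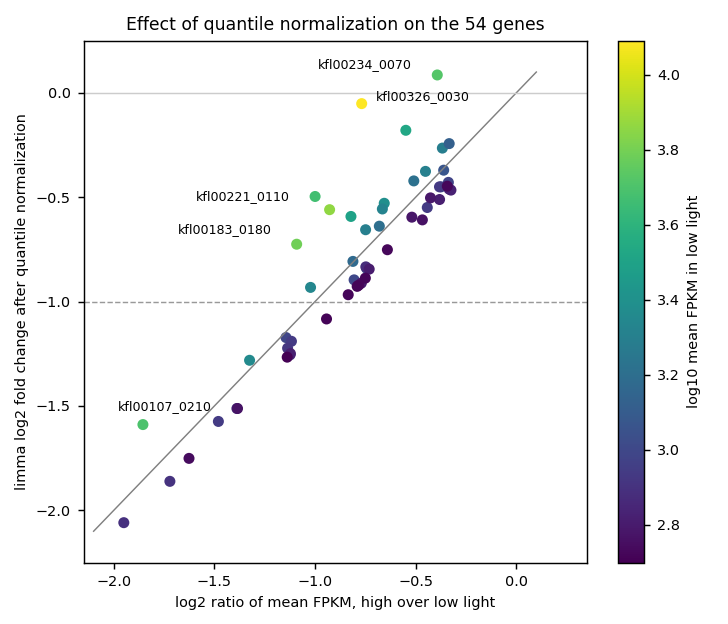
Log2 fold change of the 54 genes in limma after quantile normalization against the log2 ratio of mean FPKM, high light over low light, coloured by low light level, with the line of equality and a dashed line at −1. The 19 genes above the line all have at least 1000 FPKM in low light, and kfl00234_0070 lies above 0.

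Replicates of the 54 genes differed little, as did those of other abundant genes, whose median spread was smaller still. The rule left out genes whose libraries overlapped between conditions, so the spread of the 54 is not independent of the choice. The coefficient of variation between replicates had a median of 2.92% in high light and 4.40% in low light, beside 2.51% in high light and 3.14% in low light for the other 128 abundant genes. Genes above 0 in all libraries had medians of 8.65% in high light and 9.93% in low light. The widest replicate difference was at kfl00540_0020, with 323 and 275 FPKM in high light, against 552 and 482 FPKM in low light. Low light replicate 1 exceeded replicate 2 in 42 of the 54 genes (77.8%), where it did so in 51.6% of the other abundant genes and 59.1% of genes above 0. In high light, replicate 1 exceeded replicate 2 in 26 of the 54. The low light libraries therefore differed in one direction across most of these genes.

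Ranks show how far the genes moved within a library. Of the 10 genes with the highest FPKM, 3 and 4 belonged to the 54 in high light, against 6 and 6 in low light. Among the top 50, the 54 genes held 7 and 7 places in high light, against 15 and 15 in low light. All but 3 of the 54 had a worse rank in both high light libraries than in both low light libraries. Of these 3, kfl00234_0070 ranked better in both, and the ranks of the other 2 overlapped. A worse rank largely follows from the rule, whose upper bound of 0.8 lies under the ratio of the median gene, 0.842. The share of other genes with a worse rank was not counted, so nothing is read from these counts.

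In the genome the 54 genes were scattered over 52 scaffolds. One pair was adjacent on scaffold kfl00183, kfl00183_0170 at positions 97225 to 99241 and kfl00183_0180 at positions 99573 to 102501, with 331 bases between them. The first had 626.5 and 652 FPKM in high light, against 919 and 818 FPKM in low light, a ratio of 0.736. Its neighbour had a ratio of 0.470, so the pair differed in the size of the fall. The other pair, kfl00098_0060 (ratio 0.624) and kfl00098_0160 (ratio 0.586), had 9 genes between them, LHCB1 among these.

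Apart from the adjacent pair, genes beside the 54 were mostly weakly expressed. The 98 flanking genes that are not themselves among the 54 had a median of 9.43 FPKM in low light, and none of them reached 500 FPKM. Weak neighbours were not particular to the 54. The 222 flanking genes of the other abundant genes had a median of 14.1 FPKM in low light, also with none at 500 FPKM. Beside the 54, 82 flanking genes had a mean of at least 1 FPKM in either condition. Of these 82, 45 (54.9%) had both high light values below both low light values, beside 50.8% of all nuclear genes at that level. Flanking genes of the other abundant genes, counted in the same way, did so in 47.9% of cases. Gene spans in the annotation had a median of 2650.5 bases for the 54 genes, 3074 bases for the other abundant genes and 4850.5 bases for genes above 0 in all libraries. Spans include introns and are not transcript lengths. The shortest, 80 bases, belonged to kfl00457_0050, which had 425 and 419 FPKM in high light, against 593 and 615 FPKM in low light. A span near the read length makes its level per length uncertain.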

How the data were processed

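RNA-seq of 4 libraries was used, 2 of high light and 2 of low light. Reads were aligned by the authors in HISAT2 and gene levels estimated in StringTie (versions not given in the sources used here) on version 1.0 of the assembly and annotation. The authors deposited FPKM of 17290 features per library, not quantile normalized. FPKM hold no read counts, and low values showed no common step of 1 read, so depth is not known for any gene and the replicate spread is the only error given. The 4 columns were matched to samples by name. The 54 genes and all lists were chosen with earlier results of these data known. Shares, falls and ratios were computed from FPKM as deposited in Python 3.11.15 with pandas 2.3.3. The limma 3.58.1 fit (R 4.3.3) used quantile-normalized log2(FPKM + 1), all 17290 features, no filter, moderated variance without a trend and Benjamini-Hochberg adjustment, and was tested on simulated data. The study names limma, quantile normalization and both thresholds, but the fit here is a new one and its calls differ from the study's lists.

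Genes were first chosen by rule: the 10 highest low light means, the 3 lowest and 3 highest ratios, the 3 lowest low light means and the 3 widest replicate differences. The rule also took genes with a best hit, the 3 nearest outside each bound, and 8 antenna and electron transport genes named by the study. Not all of these are described. Further genes were named for their place in the genome, their span, the study's gene lists or high light values on both sides of 500 FPKM. Positions and spans are from the reference gene table of assembly ASM70883v1, matched by locus number for 16278 features and all 54 genes. The study does not use that assembly name. The table gives no product for nuclear genes, so lists by product name were not made. Alternatives covered the bounds, scaling, pseudocount, a filter, the variance trend, a replicate block and each library left out.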

Additional observations from a re-analysis of the deposited data

How the results depend on the processing

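The number of genes that met the rule, 54, was 97 at a minimum of 300 FPKM, 23 at 1000 FPKM, 103 with an upper bound of 0.9 and 30 after median scaling of the libraries. It was 38 with an upper bound of 0.7 and 41 after TPM rescaling. Quantile normalization gave 57, of which 48 were among the 54. Next, the 10 most abundant genes in low light over all features were left out. Not all of these are among the 54, as kfl00544_0040 is not. The share of the selected genes in summed FPKM then became 5.53% in high light and 8.98% in low light. At 300 FPKM the share was 10.2% in high light and 16.6% in low light, and at 1000 FPKM 6.71% in high light and 10.97% in low light. The loss as a percentage of the net difference was 110.4% without plastid rRNA and 111.1% without organelle features. It was 185.5% without the 10 most abundant of all features, 120.6% at 300 FPKM and 79.3% at 1000 FPKM. Leaving out each library in turn gave 52 to 56 genes, of which 47 to 53 were among the 54. The shares were then 8.55% to 8.72% in high light and 13.8% to 14.5% in low light, and the loss 101.0% to 105.2% of the net difference.

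The limma count of repressed genes among the 54, 15, was 8 after median scaling and 0 with a replicate block. Leaving out each library in turn gave 1 to 4, namely 1 without high light 1, 1 without high light 2, 4 without low light 1 and 2 without low light 2, where the lone library is assumed to vary like the other condition. The count at any size, 33, was 0 with the block and 5 to 7 with a library left out. With the block 38 of the 54 genes had a negative fold change at an unadjusted limma p below 0.05. The replicate numbers were not shown to pair the libraries, as the correlation of their deviations was −0.20 across 10557 genes. A crossed pairing, added after seeing the data, also gave 0 and 0, with 44 at an unadjusted limma p below 0.05. With either block, the share of all features at an unadjusted p below 0.05 was not counted. The rule used this contrast, so nothing is read from the 38 or the 44. Over all features, 607 repressed and 691 activated genes became 0 and 0 with either block, 1222 and 1212 with a filter at 1 FPKM, 899 and 956 with a variance trend, 876 and 515 without normalization, and 75 to 242 and 141 to 180 with a library left out. Activated genes were thus 37.0% of the calls without normalization and 53.2% with it.

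The median log2 fold change, −0.74, was −0.54 after median scaling, −0.67 after TPM rescaling and −0.81 to −0.67 with a library left out. The fold change of kfl00234_0070, 0.09, turned to −0.39 without normalization, −0.17 after median scaling, −0.30 after TPM rescaling and −0.35 after cyclic loess. It stayed at 0.09 with a filter at 1 FPKM (limma adjusted p = 0.556) and with a variance trend, where adjusted p was also above 0.05. For kfl00120_0160, at an unchanged fold change of −0.56, limma adjusted p was 0.0228 with the filter and 0.220 with the trend. Of 308 fold changes of 22 named genes under 14 alternatives, 252 kept their direction and their joint call. That call needs a log2 fold change of at least 1 in size together with an adjusted p below 0.05. Another 49 kept the direction but lost the call, 3 gained the call and 4 turned. Among the 252, the adjusted p alone could still cross 0.05. For kfl00326_0030, limma adjusted p was 0.679 in the main fit and 0.0356 without normalization. The cause of these changes was not tested. FPKM weighted by coding length and protein comparisons were not run.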
